A study of Mus musculus with 2 samples.

Results

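The 10 genes described here encode tissue factor and the proteins around it: its inhibitors, a thrombin receptor, the protein C pathway and the plasminogen activators with their receptor. They are F3, Tfpi, Tfpi2, Thbd, F2r, Procr, Serpina5, Plat, Plau and Plaur, and their probe sets were taken by gene symbol wherever the platform annotation named exactly 1 gene. This gave 16 of 45101 probe sets and 10 of 18193 named genes. Of these probe sets 15 passed the filter on low signal described below, at least 1 for every gene.

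The mice were wild type, of the outbred CD-1 stock and aged 24 to 28 days. They had received 5 IU of PMSG, a gonadotropin that grows preovulatory follicles, by intraperitoneal injection, and 5 IU of hCG, the ovulation trigger, 48 h later. At 2 h after hCG the mice were given oil vehicle or ulipristal acetate, a progesterone receptor modulator that the labels also call CDB, and ovaries were collected at 11 h. Which injection the 11 h were counted from is not in the labels, nor how many mice made up a sample or what dose of drug was given. There was 1 Affymetrix array per treatment, so the comparison has no spread between animals, no test and no p-value, and every difference below is between these 2 arrays.

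Tissue factor is the membrane protein that binds factor VIIa and starts the extrinsic pathway of blood coagulation, which ends in thrombin and fibrin. Thrombin also signals to cells by cutting the receptor encoded by F2r, and thrombomodulin turns it towards activating protein C, an anticoagulant. Plasminogen activators turn plasminogen into plasmin, which dissolves fibrin, and in the ovary they have long been studied as part of the proteolysis that accompanies follicle rupture.

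Each value is a MAS5 signal, a linear intensity in arbitrary units that the authors' processing made from the probes of a probe set. Both arrays had a mean of 150.001 once the lowest and highest 2% of values were left out. Signals below 7.17 were set to that floor before log2 was taken, a probe set counted as measured where its mean log2 signal corresponded to a signal of 30.8 or more, and a gene was represented by its measured probe set with the highest mean. Ratios are ulipristal over vehicle. Levels of different genes are not set against each other, because probe sets differ in how strongly they bind.

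Depth has no counterpart on an array, and the number of arrays limits the precision. For 2981 genes with exactly 2 measured probe sets, the log2 ratios of the pair differed by a median of 0.33, and for 5.13% of these genes by 1 or more. Poly-A spikes were brighter on the vehicle array by a median of 1.496-fold over 27 probe sets, with single ratios of vehicle over ulipristal from 0.87 to 2.25. Hybridization controls were brighter on the vehicle array by a median of 1.19-fold over 18 probe sets, and 18S ribosomal RNA by 2.41-fold over 3. The signal at the 3′ end over that at the 5′ end was 1.20 with vehicle and 0.87 with ulipristal for Gapdh, and 2.40 and 1.87 for Actb. Granulosa and oocyte markers were measured in 9 of 9 and 7 of 7 cases, and oviduct markers in 6 of 6. Endothelial and macrophage markers also passed in full (9 of 9 and 8 of 8), so this is only a weak check of the ovary label. The part of these differences between the arrays in any result was not tested.

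Tissue factor had the largest difference of the 10 genes. F3 read 1664 with vehicle and 174 with ulipristal. It was thus 9.53-fold lower after ulipristal, a log2 ratio of -3.25 from its only probe set. Both signals were far above the floor. Among measured probe sets in the same of 10 classes of mean signal, the middle 95% of log2 ratios ran from -0.90 to 0.73. Of 11362 measured genes above the floor on both arrays, 5 had a ratio at or below that of F3, itself included. In bulk tissue, fewer cells of a type and less RNA per cell cannot be told apart.

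The inhibitors of the tissue factor complex did not share the size of that difference. Tfpi, the Kunitz-type inhibitor of factor Xa and of the tissue factor complex, read 519 with vehicle and 644 with ulipristal on the probe set that represents it, 1.24-fold higher. Another 2 probe sets lay in the same direction, with 376 against 457 and 130 against 171. The remaining one lay the other way, with 356 against 302, so that the 4 log2 ratios ran from -0.23 to 0.39. Tfpi2, a related Kunitz-type inhibitor that acts on plasmin and trypsin among others, read 121 with vehicle and 72.4 with ulipristal, 1.67-fold lower on its only probe set. The Tfpi2 log2 ratio of -0.74 lay inside the range of -0.94 to 1.10 that held the middle 95% of probe sets of like signal.

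**Figure D1:**
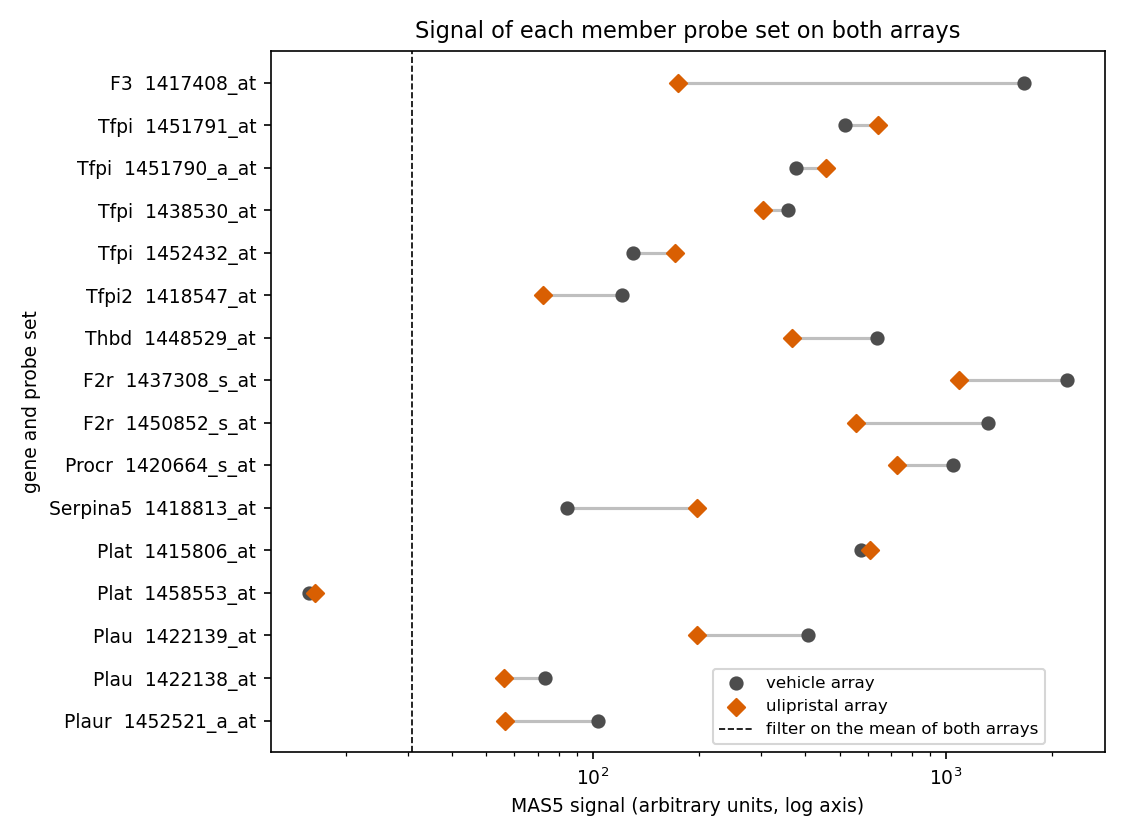
MAS5 signal (arbitrary units, log axis) of the 16 member probe sets on the vehicle array (circles) and the ulipristal array (diamonds), with a dashed line at the filter signal of 30.8. F3 shows the widest gap, from 1664 to 174, Serpina5 lies the other way, from 84.7 to 197, and 1 Plat probe set is below the line.

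F2r, the thrombin receptor also called PAR1, was lower on both of its probe sets. The first read 2198 with vehicle and 1091 with ulipristal, 2.02-fold lower, and the second 1313 and 558, 2.35-fold lower. Their log2 ratios of -1.01 and -1.24 differed by 0.22, less than the median difference of 0.33 between probe sets of 1 gene, and both lay below the range for probe sets of like signal (-0.84 to 0.56 and -0.90 to 0.73). Both carry the suffix s, given to probe sets that can bind several transcripts.

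Of the protein C pathway members, only Serpina5 reached 2-fold. Thbd, thrombomodulin, read 636 with vehicle and 367 with ulipristal, 1.73-fold lower. Procr, the endothelial protein C receptor that presents protein C to the thrombin-thrombomodulin complex, read 1043 and 724, 1.44-fold lower on a probe set that can bind several transcripts. The log2 ratios of Thbd (-0.79) and Procr (-0.53) lay inside the ranges for probe sets of like signal, -0.82 to 0.73 and -0.90 to 0.73. Serpina5, the serpin that inhibits activated protein C and also urokinase, lay the other way. It read 84.7 with vehicle and 197 with ulipristal, 2.33-fold higher, and its log2 ratio of 1.22 was above the range of -0.86 to 1.01 for probe sets of like signal.

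The 2 plasminogen activators gave different ratios. Plau, urokinase, read 408 with vehicle and 197 with ulipristal, 2.07-fold lower, and on a dimmer probe set 73.0 and 55.9, 1.31-fold lower. The log2 ratios of -1.05 and -0.39 are 0.67 apart, more than the median for probe sets of 1 gene, and only the first lay outside the range for its signal (-0.77 to 0.83 and -1.005 to 1.17). Plat, tissue-type plasminogen activator, read 574 and 608, a log2 ratio of 0.08 that turned to -0.02 when each array was centred on its median. Its other probe set was below the filter, with 15.7 and 16.4. Plaur, the receptor that holds urokinase at the cell surface, read 104 with vehicle and 56.5 with ulipristal, 1.83-fold lower, with a log2 ratio of -0.87 inside the range of -1.005 to 1.17.

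Of the 10 genes, 3 (F3, F2r and Plau) were thus lower by 2-fold or more, 1 (Serpina5) was higher by as much and 6 lay between. Among all 11364 measured genes, 1.56% reached 2-fold in the lower direction and 3.34% in the higher one. At 1.5-fold, 6 members were lower, with Tfpi2, Thbd and Plaur joining, and 1 was higher, against 4.58% and 12.3% of measured genes. At 3-fold, F3 was the 1 lower member and 0 were higher, against 0.502% and 0.528%. The members' median log2 ratio was -0.77, beside 0.09 over all measured genes. The genes were chosen by pathway with the signals of both these arrays already known, so the ratios are a description and nothing is read from these shares. Of all genes past 2-fold, 68.2% were higher, a share that was 57.3% after quantile normalization, 56.3% after lowess centring and 54.3% after median centring. It was a minority with 50 added to every signal (35.5%) and with the filter at the 75th percentile (36.5%).

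The members just inside 2-fold were F2r (2.02-fold) and Plau (2.07-fold), and those just outside it were Plaur (1.83-fold) and Thbd (1.73-fold). With 50 added to every signal, F3 was the only member past 2-fold. F2r was less than 2-fold lower after quantile normalization and after lowess centring, with log2 ratios of -0.91 and -0.93, and Plau at the median of its probe sets, with -0.72. The direction of 9 members was the same under each of the scaling, floor, filter and probe set settings that could give a value, and Plat was the exception.

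**Figure D2:**
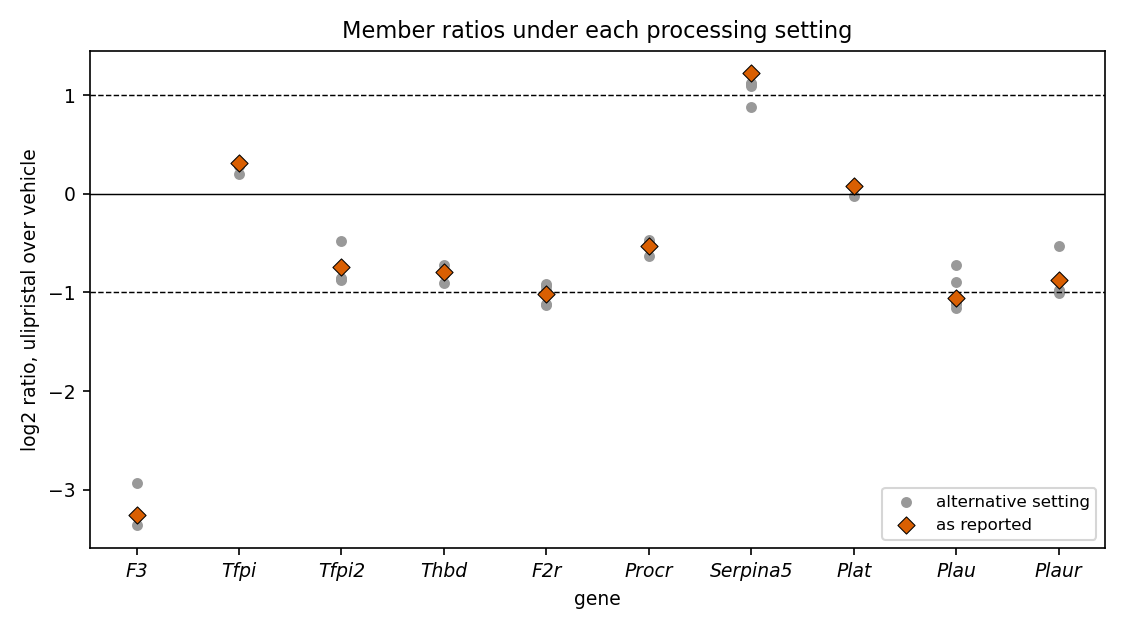
Log2 ratio of ulipristal over vehicle for each member as reported (diamonds) and under up to 10 alternative settings of scaling, floor, filter and probe set (grey points), with dashed lines at 2-fold. F3 stays between -3.36 and -2.93, F2r and Plau cross the lower line, Serpina5 reaches 0.88 with 50 added to every signal, and Plat crosses 0.

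**Figure D3:**
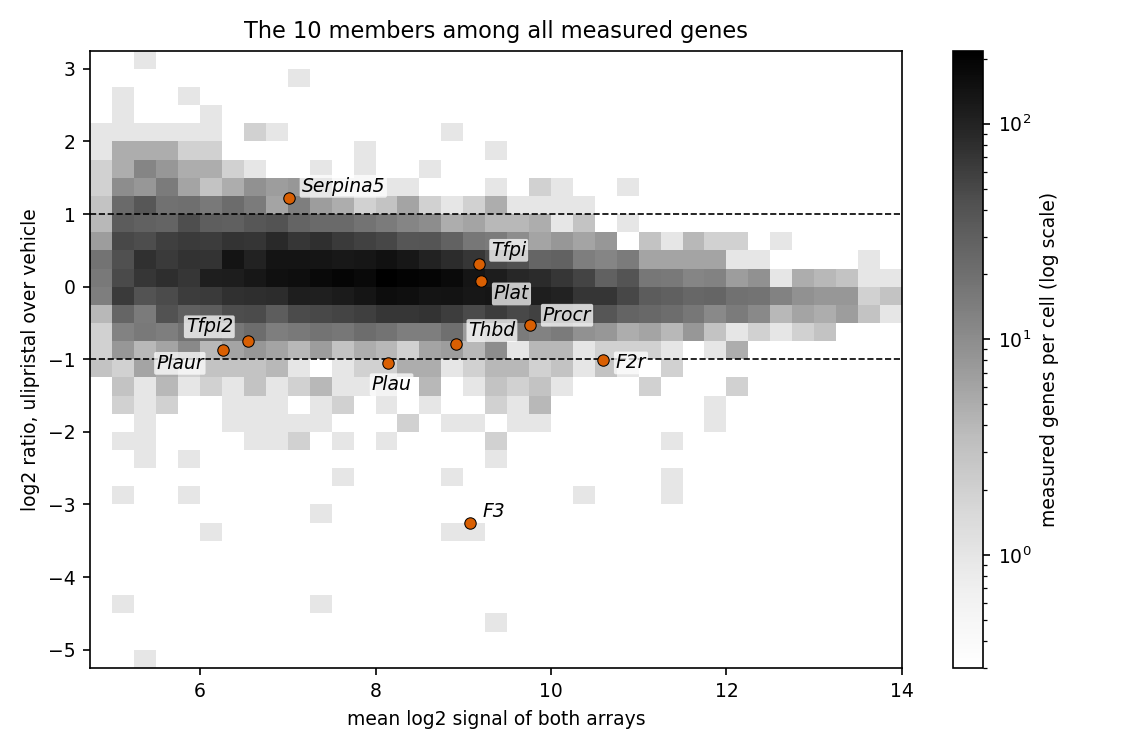
Log2 ratio of ulipristal over vehicle against mean log2 signal for all 11364 measured genes (grey cells, darker where more genes fall, log colour scale) and the 10 members (orange points), with dashed lines at 2-fold. F3 at -3.25 stands apart from the body of the cloud, while Plau and F2r lie at the lower line and Serpina5 above the upper one.

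The other genes of coagulation and of the plasminogen system were taken from 4 lists of 39 genes in all. Of these, 34 had a probe set of a single gene and 8 were measured, of which 0 reached 2-fold in either direction. Their median log2 ratio was -0.12, with 5 below 0 and 3 above. Among all measured genes, 1.56% were at least 2-fold lower, 3.34% at least 2-fold higher and 40.0% below 0. With 8 genes, nothing is read from 0 past 2-fold. Genes without a single-gene probe set are not analysed here.

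Coagulation factors were measured in 2 of 16 cases. F13a1, the subunit of the factor that crosslinks fibrin, read 342 with vehicle and 273 with ulipristal, and Vwf, von Willebrand factor, read 31.5 and 52.6. The anticoagulant list of 6 had 1 measured member, Pros1, the protein C cofactor protein S, with 756 and 722. The receptors related to F2r gave no measured member. F2rl2, which encodes PAR3, was below the filter with 30.5 and 10.02.

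Among 14 genes for plasminogen, its inhibitors and its partners at the cell surface, 5 were measured. S100a10, which forms a plasminogen-binding complex with annexin A2, had the lowest ratio, with 3662 against 2388, 1.53-fold lower. The log2 ratios of its 3 probe sets ran from -1.11 to -0.55. The 2 probe sets of Anxa2, annexin A2 itself, disagreed, with log2 ratios of -0.25 and 0.97. Lrp1, an endocytic receptor that clears protease-inhibitor complexes, had the highest ratio of this list, with 981 and 1323. Serpinb2, plasminogen activator inhibitor 2, was below the filter because the filter uses the mean of both arrays. It read 44.1 with vehicle and was below the floor with ulipristal, at least 6.16-fold lower, and it was singled out after its values were seen. Plg itself was below the floor on both arrays, as was F2, the prothrombin gene. Both are known mainly as products of the liver.

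**Figure D4:**
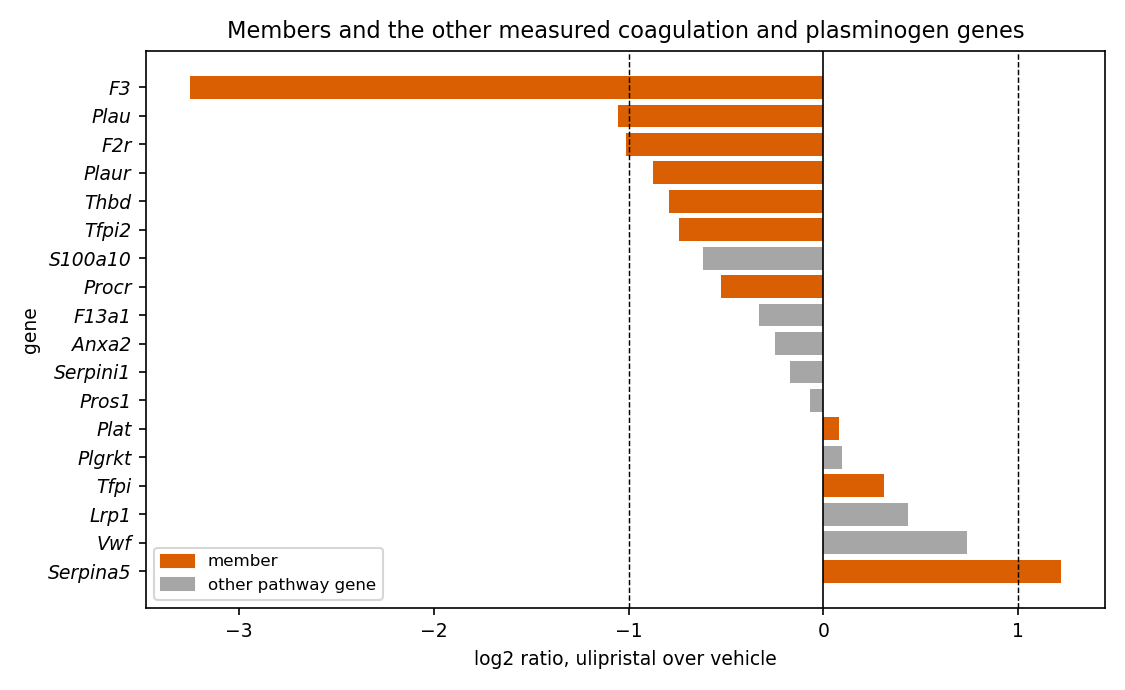
Log2 ratio of ulipristal over vehicle (bars from 0) for the 10 members (orange) and the 8 other measured genes of coagulation and the plasminogen system (grey), with dashed lines at 2-fold. The other genes run from S100a10 at -0.62 to Vwf at 0.74, all inside the dashed lines.

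Cell types known to express these genes were followed through marker lists. Of all 11364 measured genes, 6818 had log2 ratios above 0, and the median was 0.09. By 2-fold or more, 380 of these genes were higher and 177 lower. The marker counts below were not tested against these numbers, and no change in cell number is read from them. Endothelial cells are a known source of Thbd, Procr, Tfpi and Plat. All 9 endothelial markers, Vwf among them, were measured, 8 of them had ratios above 0, and 2 reached 2-fold, both higher (Tie1 and Pecam1). These 2 were dim with vehicle, at 24.8 and 85.2. Cdh5, the 1 marker below 0, read 340 with vehicle and 288 with ulipristal. The summed signal of all 9 was 1828 with vehicle and 2284 with ulipristal, 1.25-fold higher. Macrophage markers, 8 of 8 measured and all above 0, summed to 1552 and 1939. Neutrophil markers summed to 453 and 313 over 5 genes, of which 3 were measured and all reached 2-fold, S100a8 and S100a9 lower and Ltf higher. Platelet markers summed to 516 and 485. Granulosa markers, 4 of 9 at least 2-fold higher (median log2 ratio 0.76), summed to 18079 and 21530. That sum came mostly from Inha, Star and Nr5a2, none of which reached 2-fold. Surface epithelium markers, 1 of 6 at least 2-fold higher, summed to 1187 and 1872. Of the 6 oviduct markers 5 reached 2-fold, all higher (median log2 ratio 1.29). The oviduct sum of 3825 and 6122 came mostly from Ovgp1, which did not reach 2-fold and read 3641 and 5642. Theca and interstitial markers summed to 2463 and 3398, and of 4 measured, 1 reached 2-fold lower (Hhip) and 1 higher (Tcf21). Smooth muscle and pericyte markers, 7 of 7 measured, summed to 16443 and 17998. Of these 6 were above 0 and 1 below, and 0 reached 2-fold. No marker with a probe set, in any of these lists, was below the floor on both arrays. The part of cell content in the values of any of the 10 genes was not tested.

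The sequences before the annotated starts of the members were read as a description. RefSeq, build GRCm38.p6, gave 10 windows of 250 bases before a start for 7 members. Thbd, Plat and Plau had none in the table. The letters TGANTCA, with any base in the middle, are a loose form of the AP-1 motif bound by Fos and Jun proteins. They read the same on both strands and were found before a start of 5 members: F3, Tfpi2 at 1 of its 3 starts, F2r, Procr and Plaur. The Tfpi2 match and 1 of those in F3 read TGAATCA. Of the 5 members, F3 and F2r were past 2-fold lower, and Tfpi2, Procr and Plaur were not and lay inside the range for probe sets of like signal. Log2 ratios were below 0 for 7 of the 10 members and for 40.0% of all measured genes. The members were chosen with these signals known, and Plau, also past 2-fold lower, had no window. No link between the motif and a direction is therefore drawn. Neither of the Tfpi windows nor the Serpina5 window held these letters. TGANTCA was held by 6.75% of all 32851 windows, and at least 2 times by 0.338%, as F3 did. The windows of all starts are not independent, since a gene can have several, and a match is not evidence of binding.

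The 4 single-start windows with a match and that of Serpina5 are shown 5′ to 3′ so that the positions of the matches can be read. Serpina5 was picked by its ratio, as the only member past 2-fold higher. The windows of Tfpi2, which has several starts, are not shown. Capitals mark TGANTCA in the first 4 and AGAACA, the core hexamer bound by progesterone and glucocorticoid receptors, in Serpina5. They lie at chr3:121723287-121723536 on the plus strand for F3, chr13:95618467-95618716 on the minus strand for F2r, chr2:155750967-155751216 on the plus strand for Procr, chr7:24462233-24462482 on the plus strand for Plaur, and chr12:104100863-104101112 on the plus strand for Serpina5.
F3: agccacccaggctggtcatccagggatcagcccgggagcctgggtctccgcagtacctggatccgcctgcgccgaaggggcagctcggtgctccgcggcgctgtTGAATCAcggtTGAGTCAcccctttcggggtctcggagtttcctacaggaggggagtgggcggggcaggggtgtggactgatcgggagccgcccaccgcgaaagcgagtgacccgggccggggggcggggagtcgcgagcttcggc
F2r: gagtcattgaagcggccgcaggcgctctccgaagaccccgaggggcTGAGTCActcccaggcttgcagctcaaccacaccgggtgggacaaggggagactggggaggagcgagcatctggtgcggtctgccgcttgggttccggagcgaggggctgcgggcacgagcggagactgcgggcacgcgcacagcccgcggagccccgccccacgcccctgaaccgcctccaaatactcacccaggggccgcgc
Procr: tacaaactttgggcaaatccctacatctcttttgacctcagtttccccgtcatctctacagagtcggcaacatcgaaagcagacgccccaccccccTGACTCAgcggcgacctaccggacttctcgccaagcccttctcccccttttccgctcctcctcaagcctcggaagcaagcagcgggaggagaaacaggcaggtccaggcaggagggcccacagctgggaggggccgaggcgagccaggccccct
Plaur: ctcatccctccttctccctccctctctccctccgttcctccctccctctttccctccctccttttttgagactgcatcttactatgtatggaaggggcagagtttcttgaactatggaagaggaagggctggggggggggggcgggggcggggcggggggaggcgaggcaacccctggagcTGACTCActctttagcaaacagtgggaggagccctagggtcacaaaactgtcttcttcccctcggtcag
Serpina5: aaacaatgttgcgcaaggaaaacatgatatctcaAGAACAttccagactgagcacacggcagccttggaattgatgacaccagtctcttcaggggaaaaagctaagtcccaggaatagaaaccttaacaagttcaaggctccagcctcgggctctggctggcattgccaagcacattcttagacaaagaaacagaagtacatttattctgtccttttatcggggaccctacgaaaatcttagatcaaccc

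In F3 the matches began 146 and 135 bases before the start and read TGAATCA and TGAGTCA. The last base of the first and the first base of the second are thus separated by 4 bases. In F2r the match began 204 bases before the start, in Procr 154 and in Plaur 69. GGGCGG, an Sp1 motif, searched on both strands, occurred 3 times each in F3 and Plaur (overlapping in the latter), 1 time in F2r and in each Tfpi window, 2 times before 1 Tfpi2 start, and in 32.7% of all windows. GCGNGGGCG, an EGR motif, was found in Plaur and before 1 Tfpi2 start, overlapping GGGCGG in both, and in 4.70% of windows.

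The hexamer AGAACA, on either strand, was found in Serpina5 at 216 bases and before the other 2 Tfpi2 starts, whose windows overlap, and in 16.1% of windows. Serpina5 was 2.33-fold higher and Tfpi2 1.67-fold lower, and no link between the hexamer and a direction is drawn. The full steroid receptor element, which is this hexamer followed after any 3 bases by its reverse complement, and the cyclic AMP element TGACGTCA were not among the letters of any member window on either strand. They were held by 0.00913% and 1.55% of all windows. At shares this low, absence from 10 windows says nothing about receptor sites of the members. Whether any factor bound these sites was not measured.

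**Figure D5:**
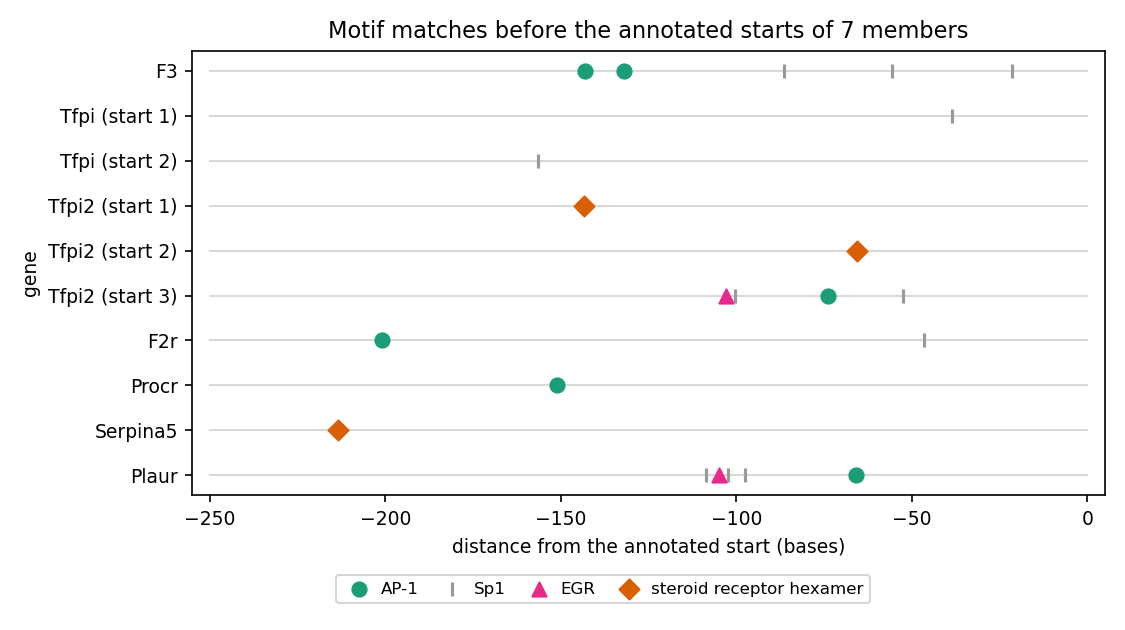
Position of motif matches, as distance in bases from the annotated start, in the 10 windows of 250 bases for 7 members, with 1 row per start and 1 symbol per motif. F3 holds 2 AP-1 matches at 146 and 135 bases before its start. The steroid receptor hexamer is AGAACA on either strand.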

How the data were processed

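Biotin-labelled RNA was made from 100 ng of total ovarian RNA and hybridized to Mouse Genome 430 2.0 arrays (Affymetrix), per the labels. The authors deposited 1 intensity per probe set and array, on a linear scale. MAS5 and Affymetrix Expression Console 1 stand in the submitters' processing notes, with no role for either. No build is named. Equal trimmed means show that the arrays were scaled to each other, which hides any shift common to most genes.

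The annotation named 1 gene for 34945 of 45101 probe sets, several for 932 (0 with a member among them) and none for 9160, beside 64 controls. All 10 member symbols matched the RefSeq table (GRCm38.p6) by gene identifier. The floor of 7.17 was the 25th percentile of all non-control signals, and the filter of 30.8 the median of mean log2 signals over probe sets. It kept 22519 probe sets and 11364 genes. Ranges for probe sets of like signal run from the 2.5th to the 97.5th percentile of log2 ratios within 10 equal classes of mean signal. They hold any treatment difference too and are not an error.

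Members, pathway lists and marker lists were chosen with earlier results of these data known. Every member is named. Of the pathway lists, the genes with the lowest and highest measured ratio are named by rule, and any others by their values only. With 2 arrays a pattern is 1 ratio, so genes of like pattern were not sought. The steps were tested on simulated data. The alternatives concerned the scaling (median centring, quantile normalization, lowess with a fraction of 0.3), the floor (none, the 50th percentile, or a pseudocount of 50 in its place), the filter (none or the 75th percentile), the probe sets (median of a gene's sets, or no s and x sets) and the fold (1.5 or 3). The software was Python 3.11.15 with numpy 2.4.6, statsmodels 0.14.6, pandas 2.3.3 and matplotlib 3.10.9.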

Additional observations from a re-analysis of the deposited data

How the results depend on the processing

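With 50 added to every signal, 1 member was at least 2-fold lower and 0 higher, in place of 3 and 1. With the filter at the 75th percentile, which kept 7 members and left out Serpina5, Tfpi2 and Plaur, 0 were higher. At 1.5-fold 6 members were lower, and 1 pathway gene was lower and 1 higher. At 3-fold 1 member was lower and 0 higher. Without a filter, 34 pathway genes gave a value, 2 at least 2-fold lower (Serpinb2 and F2rl2) and 3 higher (Proc, Serpind1 and Vtn), all dim. Leaving out s and x probe sets removed F2r and Procr. Of 95 member ratios under alternatives, 88 stayed on the same side of 2-fold, 6 no longer reached it (F2r 3 times, Plau 2 times, Serpina5 1 time) and 1 newly did, Plaur after lowess centring (-1.003). Median centring moved the median ratio of all genes by -0.11, so ratios in that setting are read relative to it. The median of the pathway genes turned to 0.01 at the median over probe sets. The medians of members and pathway genes moved by less than 0.33, the median difference between probe sets of 1 gene, under the alternatives that could give one. No paired analysis was possible because each treatment has 1 array. No replicate could be left out. For members near the filter (Plaur, Tfpi2, Serpina5 and the dimmer Plau probe set), signal over background limits the precision.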
